A study of Mus musculus with 2 samples.

Results

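Ribosome biogenesis genes encode the factors that transcribe, modify and fold ribosomal RNA in the nucleolus. Here they were taken by name from the gene tables of bone marrow LSKs, and 51 of the 34745 listed genes fell under the naming rule. The rule took symbols that start with Nop, Utp, Nol or Rrp and a digit, the RNA polymerase I genes Polr1a to Polr1e, and 12 further nucleolar genes, and left out pseudogene names. No measured value entered the rule, but it was chosen with earlier results of these data known.

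LSKs are lineage-negative bone marrow cells positive for Sca1 and c-Kit, and hold the hematopoietic stem and progenitor cells. They were sorted from Scl/tTA-BA mice on the C57BL/6 background, in which a tetracycline transactivator driven by Scl turns on the BCR/ABL (BA) transgene once doxycycline is withdrawn. Both groups were BA mice, so both carried the transgenes: the week-0 group (control) was taken before BA was induced, under doxycycline, and the week-3 group after 3 weeks of induction. The ages of the mice are not given in the sources used here, and expression of BA is limited to cells in which Scl is active. RNA-seq was done on 1 library per group, for which LSKs of 3 mice had been mixed, and 6356164 (week-0) and 3886695 (week-3) reads fell on genes. There were no replicates, so variation between mice could not be measured, the comparisons below are between single libraries, and no value in the following results carries a test between the time points. An edgeR test with an assumed variation was run as an alternative only. A lower value in bulk RNA can come from fewer cells of a type or from less RNA per cell, and these cannot be told apart.

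Ribosome production starts with RNA polymerase I, which transcribes the long precursor of the ribosomal RNAs. Small nucleolar ribonucleoproteins (snoRNPs) then modify that RNA, the box C/D class by methylating riboses and the box H/ACA class by making pseudouridine. The small subunit processome and a set of large subunit factors cut and fold the precursor into the pre-ribosomal particles, and Ncl and Npm1 are among the most abundant proteins of the nucleolus. Cells that grow and divide make many ribosomes, and Myc is a known activator of these genes through the sequence CACGTG, called an E-box.

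The short sequences below show where that E-box occurred in the set. RefSeq promoters of GRCm38.p6, running from 250 bases before to 50 bases after the annotated start, were found for 41 of the 51 genes. Nol3, Utp23, Bop1, Nol6, Utp11l, Rrp12, Utp6, Nol4, Fbl and Npm1 had no entry. CACGTG, which reads the same on both strands, occurred in the promoters of 8 of the 41 genes (19.5%), against 12.2% of the 7921 genes with an entry and a mean FPKM of at least 1, and 8.09% of all genes with an entry. The site of each is printed on the strand of the gene, 5′ to 3′, with up to 12 flanking bases and the motif in capitals.
Mybbp1a (chr11:72441355-72441376, plus strand): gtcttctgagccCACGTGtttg
Nol11 (chr11:107189407-107189436, minus strand): cttgagcgttcgCACGTGgtctagactcca
Nop2 (chr6:125131811-125131840, plus strand): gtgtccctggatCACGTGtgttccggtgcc
Pes1 (chr11:3963965-3963994, plus strand): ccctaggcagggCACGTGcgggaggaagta
Rrp7a (chr15:83122992-83123021, minus strand): gtgcctgtgcacCACGTGtcctggaactgg
Utp14b (chr1:78658365-78658394, plus strand): cgcgggcgcgggCACGTGggtggggtcgtc
Utp18 (chr11:93885769-93885798, minus strand): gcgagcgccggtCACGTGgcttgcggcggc
Utp20 (chr10:88826765-88826789, minus strand): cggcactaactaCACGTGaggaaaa
The motif began 43 bases before the start in Nol11, 60 before it in Nop2, 63 in Utp14b, 20 in Utp18 and 208 in Rrp7a. In Pes1, Utp20 and Mybbp1a it lay downstream, beginning at bases 3, 38 and 41 of the transcript. A match of letters is a description of the window and not a binding site.

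The libraries also differed in markers of other blood cells, which stood beside every change given below. Of the sorting markers, Kit went from an FPKM of 16.9 to 11.5 and Ly6a, which encodes Sca1, from 19.8 to 14.8. The 10 mast cell and basophil markers took 325 reads per 1000000 at week-0, with Mcpt4 and Tpsb2 at 0, and 4192 at week-3, and 9 of the 10 were higher. All 9 neutrophil markers with a mean FPKM of at least 1 were higher, and the whole list took 3496 and 16422 reads per 1000000. Erythroid markers (2215 and 425 reads per 1000000, 9 of 10 lower by 2 times), B lineage markers (1536 and 310, 4 of 6 lower by 2 times) and stem and progenitor markers (2177 and 1014, 3 of 7 lower by 2 times) were lower in sum. T lineage markers took 51.9 and 27.5 reads per 1000000. The share of reads on 24 immediate-early genes was 4.95% (week-0) and 1.35% (week-3), and 22 of them were lower by 2 times. Of all 10856 genes with a mean FPKM of at least 1, 13.8% were lower by 2 times, and 6007 were higher at any ratio. Of the 20 cell cycle genes, 17 were higher, and their median log2 ratio was 0.25. Their 95% counting intervals lay above 0 for 13 (65%) and below 0 for 2 (10%). Over all genes with a mean FPKM of at least 1, these shares were 36.3% and 27.8%. The proliferation marker Mki67 had a log2 ratio of -0.06 (-0.20 to 0.08). The part of cell makeup and of these gene groups in the changes of the ribosome biogenesis and nucleolar genes was not tested.

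The labels of the set were compared with the GO terms listed in the deposited tables. Of the 51 genes, 49 carried the term nucleolus (96.1%), against 6.25% of the 10856 genes with a mean FPKM of at least 1 over both libraries. Ribosome biogenesis was listed for 36 genes (70.6%, against 1.999%) and rRNA processing for 33 (64.7%, against 1.29%). Nop9, a factor of the small subunit, and Nol4l were the genes without the nucleolus term. The 5 RNA polymerase I genes, Nol3, Nol4, Nol4l and Mybbp1a were among those with neither of the other terms. Nol3, an inhibitor of apoptosis, is in the set by its name alone.

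Almost all of the set was expressed in LSKs. A mean FPKM of at least 1 (FPKM, fragments per kilobase of exon for each 1000000 reads) was reached by 47 of the 51 genes. Their median FPKM was 14.9 at week-0 and 16.6 at week-3, against 6.01 and 5.88 over the 9716 genes above the same limit that have a coding mRNA in GENCODE M21. The remaining genes were Nol3, with 1 read at week-0 and 3 at week-3, Nol4, with 2 and 1 reads, Nol4l and Utp14b. Nol3 and Nol4 were at or under 3 reads in both libraries, so no change of these genes was detectable at this depth. In the order week-0 and week-3, which is kept throughout, Nol4l had 133 reads (FPKM 1.49) and 21 reads (0.384). Utp14b had 57 reads (0.820) and 15 reads (0.353). Both of these weakly expressed genes were lower at week-3, with log2 ratios of -1.95 (95% counting interval -2.69 to -1.28) and -1.22 (-2.14 to -0.38). Utp14b shares 244 bases of exon with Acsl3 on the same strand, so its reads are uncertain.

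**Figure D1:**
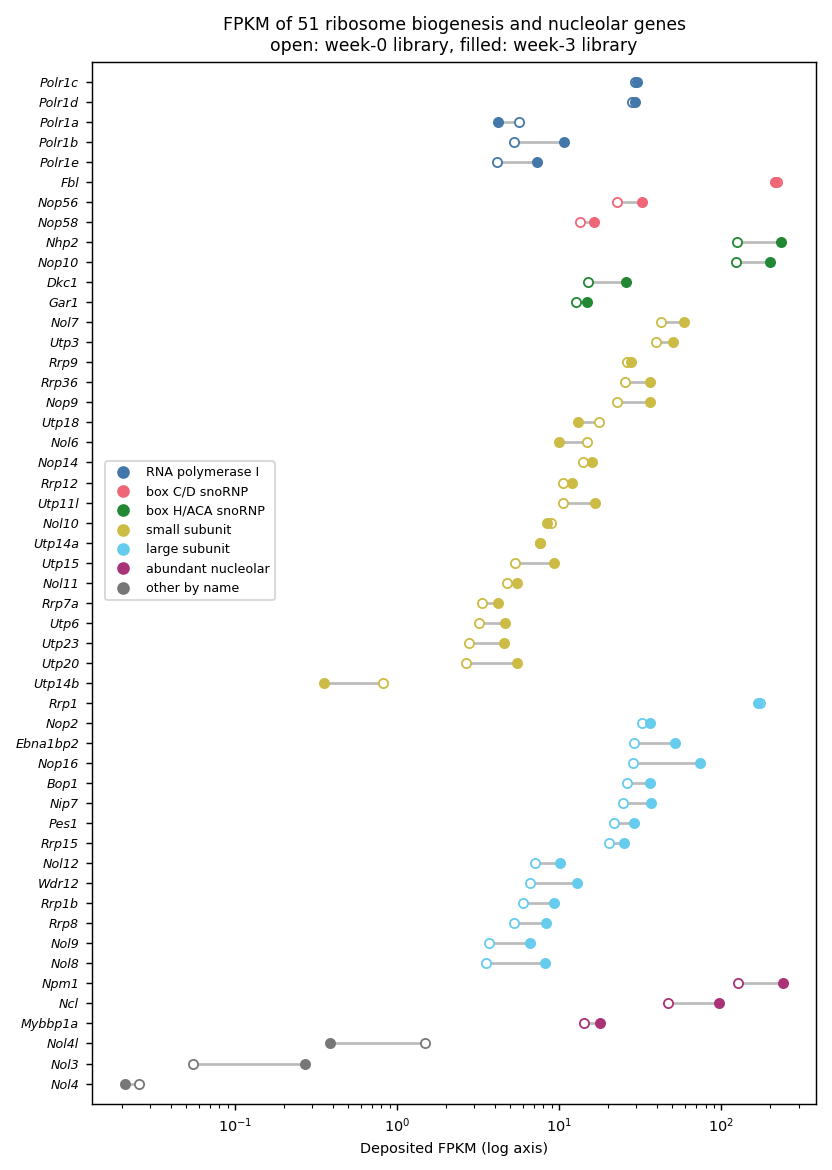
Deposited FPKM (log axis) of each of the 51 genes in the week-0 library (open circles) and the week-3 library (filled circles), coloured by role and ordered within each role by the week-0 value. Npm1, Nhp2, Fbl, Nop10 and Rrp1 lie above an FPKM of 100 in both libraries, and Nol3 and Nol4 lie at the far left with at most 3 reads.

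Together the 51 genes received 0.505% of all reads in the week-0 library (32125 reads, 95% exact binomial interval 0.50 to 0.511) and 0.745% in the week-3 library (28947 reads, 0.736 to 0.753), a ratio of 1.47. All intervals are at 95%. They reflect counting error alone, as the cDNA was amplified and its reads do not each stand for a molecule. For single genes, the log2 ratio (week-3 over week-0) of the FPKM is given with an exact Clopper-Pearson interval. The median change of the 47 genes was 0.51 on the log2 scale, where all 10856 genes had a median of 0.10. The lower and upper quartiles were 0.18 and 0.79 for the 47 genes, and -0.47 and 0.57 for all genes. The median of the 47 genes was thus 0.40 above that of all genes, and their quartiles lay closer together.

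A ratio of at least 1.5 was found for 19 of the 47 genes (40.4%, background 24.5% of all genes), and a ratio of at most 0.67 for 0 of 47 (background 22.7%). At a limit of 2, 5 of the 47 genes were higher (10.6%, background 11.0%) and 0 were lower (background 13.8%). In the deposited FPKM, the share of higher genes was thus above the background at the limit of 1.5 and near it at the limit of 2. None of the 47 was past either lower limit. The 5 genes past 2 were Nop16, Nol8, Ncl, Utp20 and Polr1b. With TMM scaling, which moves every log2 ratio by -0.11, 2 of these, Nop16 and Nol8, were past it. That share of the 47 genes was below the background of 8.83% with the same scaling. The counting interval lay above 0 for 31 of the 47 genes (background 36.3%), below 0 for 3 (background 27.8%), and included 0 for 13. Whether an interval excludes 0 depends on the number of reads as well as on the change. The 47 genes had a median mean FPKM of 15.3, against 6.22 over the 9716 genes with a coding mRNA. The 80 cytosolic ribosomal protein genes, with a median change of 0.00, had 43.75% of intervals above 0 and 46.25% below. The backgrounds of interval counts, here and elsewhere, are not matched for read depth. A change above the median of all genes was found for 37 of the 47 (background 50.0%).

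**Figure D2:**
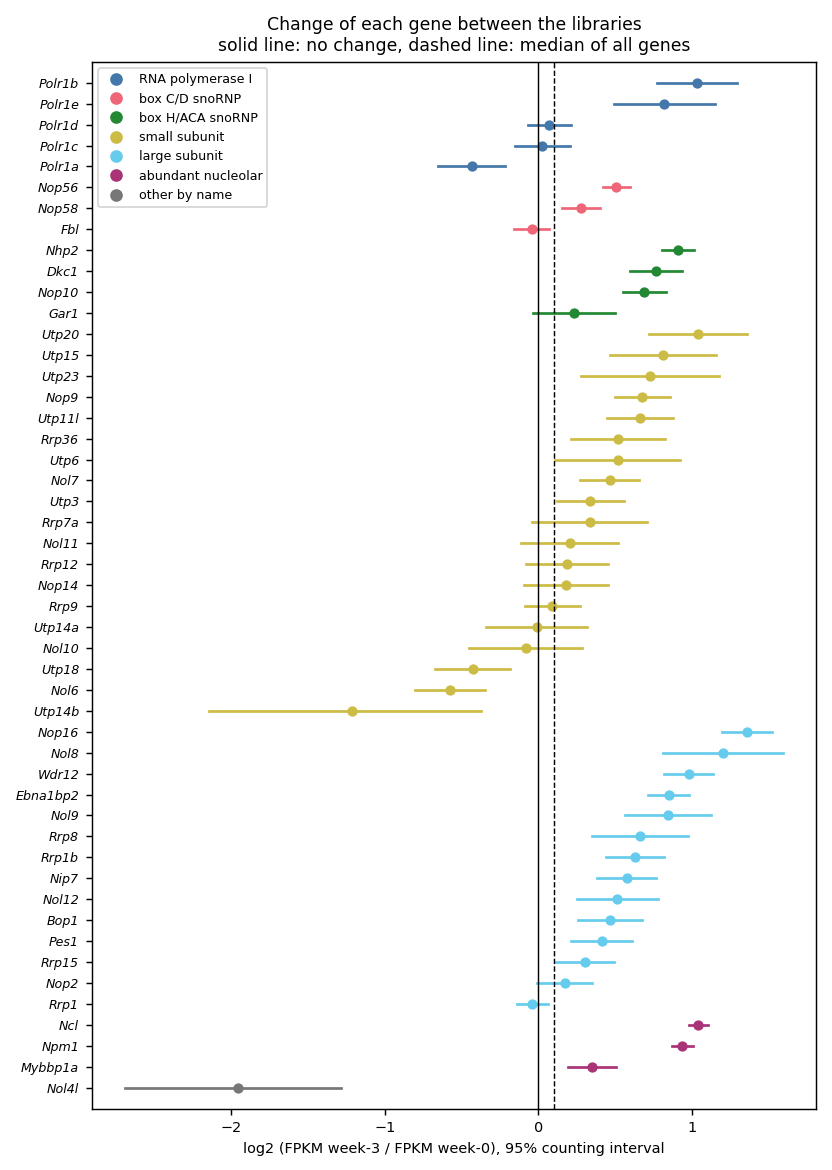
Log2 ratio of FPKM, week-3 over week-0, with its 95% counting interval for 49 of the 51 genes, coloured by role (Nol3 and Nol4, with at most 3 reads, are not drawn). The solid line marks no change and the dashed line the median of all genes, 0.10; the box H/ACA, large subunit and abundant nucleolar genes lie mostly to the right of both lines, while Polr1a, Utp18, Nol6, Utp14b and Nol4l lie to the left.

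The genes of abundant nucleolar proteins had the highest median change of the role groups, 0.94 over 3 genes. Ncl encodes nucleolin, which binds nascent ribosomal RNA (ENSMUSG00000026234, chromosome 1 of GRCm38 from 86344719 to 86359400, minus strand). It had 3639 reads (FPKM 47.2) in the week-0 library and 4575 reads (97.1) in the week-3 library, which gave a log2 ratio of 1.04 (0.98 to 1.10). Npm1, the nucleophosmin gene (chromosome 11 from 33152287 to 33163206), went from 3236 reads (127) to 3787 reads (242), a log2 ratio of 0.94 (0.87 to 1.005). These 2 genes had the most reads of the set in both libraries and the narrowest intervals. Mybbp1a, which binds Myb and is part of nucleolar complexes, was higher by less, with 770 reads (14.1) and 599 reads (17.99) and a log2 ratio of 0.35 (0.19 to 0.50). Its interval did not overlap those of Ncl and Npm1. Summed, the reads of these 3 genes were 1203 per 1000000 at week-0 and 2306 at week-3.

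Within the box H/ACA snoRNP, the transcripts of 3 of the 4 proteins were higher at week-3. Dkc1 (dyskerin, the pseudouridine synthase, chromosome X from 75095854 to 75109777) had 563 reads (FPKM 15.2) and 586 reads (25.8), a log2 ratio of 0.77 (0.60 to 0.94). For Nhp2, the numbers were 1395 reads (125) and 1600 reads (234), a log2 ratio of 0.91 (0.80 to 1.01). Nop10 had 873 reads (124) and 861 reads (200), with a log2 ratio of 0.69 (0.55 to 0.83). Each of these proteins sits in the same particle, which is also part of telomerase. The fourth, Gar1, had 277 reads (12.7) and 199 reads (14.9), and its interval around 0.23 ran from -0.04 to 0.50. The intervals of Gar1 and Dkc1 did not overlap, so their shifts between these libraries differed by more than counting error. Error from amplification is not part of these intervals.

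The box C/D snoRNP showed smaller differences. Fbl, the fibrillarin methyltransferase, had 1626 reads (FPKM 221) and 964 reads (214), and its log2 ratio of -0.04 had an interval from -0.16 to 0.07. Nop56 and Nop58 form the scaffold of the particle. Nop56 went from 2203 reads (22.7) to 1915 reads (32.3), a log2 ratio of 0.51 (0.42 to 0.60). Nop58 went from 1256 reads (13.5) to 930 reads (16.4), a log2 ratio of 0.28 (0.15 to 0.40). The intervals of the 3 genes did not overlap, with Fbl lowest and Nop56 highest. With TMM scaling, Fbl was at -0.16.

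The RNA polymerase I subunits did not move together. Polr1a, the largest and catalytic subunit (chromosome 6 from 71909053 to 71984935), had 566 reads (FPKM 5.67) and 256 reads (4.20), a log2 ratio of -0.44 (-0.65 to -0.22). Polr1b, the second-largest subunit (chromosome 2 from 129100995 to 129126594), had 223 reads (5.26) and 279 reads (10.8), a log2 ratio of 1.03 (0.77 to 1.29). The 2 subunits that make up the active centre thus changed in opposite directions, with intervals far apart, and this kept its sign with TMM and median-of-ratios scaling. Polr1e, a subunit particular to this polymerase, had 151 reads (4.12) and 163 reads (7.27), a log2 ratio of 0.82 (0.49 to 1.15). Polr1c and Polr1d are shared with RNA polymerase III. Polr1c had 657 reads (29.5) and 409 reads (30.1), and Polr1d had 1073 reads (28.1) and 689 reads (29.5). Their log2 ratios of 0.03 (-0.16 to 0.21) and 0.07 (-0.07 to 0.21) included 0 and turned to -0.09 and -0.04 with TMM scaling. Among these 5 genes, the week-3 library thus held those shared with RNA polymerase III at close to the week-0 level. Beside them were 1 lower and 2 higher genes of RNA polymerase I alone. This tally does not cover the whole polymerase. Of 11 RNA polymerase I factors outside the naming rule, 8 were higher and 3 lower, among the latter Znrd1 (-0.61). Of all 10856 genes, 6007 were higher and 4849 lower.

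Among the genes of the naming rule, the large subunit factors were the more uniform of the 2 larger groups. They had 12 of 14 intervals above 0 (background 36.3%) and a median change of 0.60. Nop16 (chromosome 13 from 54584185 to 54590090), a factor of the early large subunit particle, had 504 reads (FPKM 28.7) and 790 reads (73.6). Its log2 ratio of 1.36 (1.20 to 1.52) was the largest of the 47 genes. Ebna1bp2 had 912 reads (29.0) and 1003 reads (52.1), a log2 ratio of 0.85 (0.72 to 0.98). Rrp1, second to Fbl in deposited FPKM at week-0, had 2204 reads (173) and 1312 reads (168). It was the lowest of the group, with a log2 ratio of -0.04 (-0.14 to 0.06). Its paralog Rrp1b had a log2 ratio of 0.63 (0.44 to 0.81), and the 2 intervals did not overlap.

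Pes1, Bop1 and Wdr12 encode the PeBoW complex, which is needed to process the large subunit RNAs. Wdr12 went from 605 reads (FPKM 6.58) to 728 reads (13.0), a log2 ratio of 0.98 (0.82 to 1.13). Bop1 had 414 reads (26.3) and 350 reads (36.4), and its log2 ratio was 0.47 (0.26 to 0.68). Pes1 had 473 reads (21.9) and 385 reads (29.1), with a log2 ratio of 0.41 (0.21 to 0.61). All 3 partners were higher at week-3, Wdr12 by more than the others. Among the remaining large subunit genes, Nol8 had a log2 ratio of 1.20, Nol9 0.84, Rrp8 0.66, Nip7 0.57, Nol12 0.51 and Rrp15 0.30, each with an interval above 0. Nop2, an RNA methyltransferase, had 627 and 432 reads and a log2 ratio of 0.17 (-0.01 to 0.35).

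Small subunit factors of the naming rule were more mixed. Of the 18 genes with a mean FPKM of at least 1, 9 had an interval above 0 (background 36.3%), 2 had one below 0 (background 27.8%), and the median change was 0.34. By mean FPKM the highest were Nol7, with 492 reads (42.7) and 415 reads (59.0), Utp3, with 410 reads (39.6) and 317 reads (50.1), and Rrp36, with 194 reads (25.5) and 170 reads (36.6). Their log2 ratios were 0.46 (0.27 to 0.66), 0.34 (0.12 to 0.55) and 0.52 (0.21 to 0.82). These 3 genes were higher at week-3, each by less than 1.5 times.

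The extremes of the small subunit group were Utp20 and Nol6. Utp20, a very large scaffold protein of the processome (chromosome 10 from 88746607 to 88826814), had 150 reads (FPKM 2.67) and 188 reads (5.48), a log2 ratio of 1.04 (0.72 to 1.35). Nol6 (chromosome 4 from 41114427 to 41124455), a component of the processome, had 558 reads (14.9) and 229 reads (9.98), a log2 ratio of -0.58 (-0.80 to -0.35). It was the lowest of the 47 genes, followed by Polr1a and by Utp18. Utp18, a WD-repeat protein of the processome, had 451 reads (17.5) and 205 reads (13.0), a log2 ratio of -0.43 (-0.67 to -0.19). Utp15 (0.81), Utp23 (0.73), Nop9 (0.68), Utp11l (0.66) and Utp6 (0.52) were higher, with intervals above 0. For Rrp7a (0.34), Nol11 (0.20), Rrp12 (0.19), Nop14 (0.18), Rrp9 (0.09), Utp14a (-0.01) and Nol10 (-0.08), a difference was not detectable beyond counting error at this depth.

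The wider pathway was described with 137 other ribosome biogenesis genes, chosen by their role with earlier results of these data known. Of these, 136 had a mean FPKM of at least 1. Their median change was 0.44. A ratio of at least 1.5 was found for 52 (38.2%, background 24.5%) and a ratio of at most 0.67 for 3 (2.21%, background 22.7%). Exosome and RNase MRP genes, which trim and cut the precursor, had the highest median of the pathway groups, 0.70 over 23 genes, and large subunit factors the lowest, 0.31 over 50 genes. RNA polymerase I factors had a median of 0.50 over 11 genes, small subunit factors 0.48 over 40 genes, and snoRNP assembly and nucleolar organisation genes 0.42 over 12 genes. Intervals lay above 0 for 26 of the 50 large subunit factors and below 0 for 11. For the 40 small subunit factors, these numbers were 30 and 2 (backgrounds 36.3% and 27.8%). Small subunit factors were thus the more uniform here, the reverse of the order among the genes of the naming rule. A further source, the genes that the deposited GO terms place in ribosome biogenesis and that are neither in the naming rule nor ribosomal proteins, had a median of 0.40 over 146 genes. It overlaps the list chosen by role.

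Single genes of that wider pathway covered a broad range. Among the polymerase I factors, Ttf1 (log2 ratio 1.58) and Baz2a (0.90) were highest and Znrd1 (-0.61) and Taf1b (-0.32) lowest. In the small subunit group the ends were Pwp2 (1.39) and Wdr3 (1.33), and Riok1 (-0.54) and Dnttip2 (-0.33). For the large subunit they were Rpf2 (1.20) and Ftsj3 (1.14), and Zfp622 (-1.85) and Ppan (-0.64). Zfp622, with 1118 and 189 reads, was the 1 gene of the 136 that was lower by 2 times (0.735%, background 13.8%). Tcof1 (0.93) and Nolc1 (0.87), both nucleolar organisers, stood above Pih1d1 (-0.27) and Nufip1 (-0.09) in the snoRNP group. Rpp38 (1.86) rested on 18 and 40 reads, and Exosc9 (1.29), Exosc10 (-0.49) and Rpp21 (-0.24) completed the exosome and RNase MRP group.

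Ribosomal protein genes were set beside the factors that assemble them. The 80 cytosolic ribosomal protein genes with a mean FPKM of at least 1 had a median change of 0.00. Of these, 8 had a ratio of at least 1.5 (10%, background 24.5%) and 2 one of at most 0.67 (2.5%, background 22.7%). The 73 mitochondrial ribosomal protein genes had a median of 0.57, and 36 of them were higher by 1.5 times (49.3%, background 24.5%). In reads, the cytosolic genes took 8.27% at week-0 and 8.11% at week-3, whereas the mitochondrial ones took 0.461% and 0.692%. The nucleolar genes, at a median of 0.51, therefore lay with the mitochondrial ribosomal proteins and above the cytosolic ones, and this order was unaffected by scaling, which moves all medians by the same amount. With 1 library per time point, the difference between these lists was not tested.

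**Figure D3:**
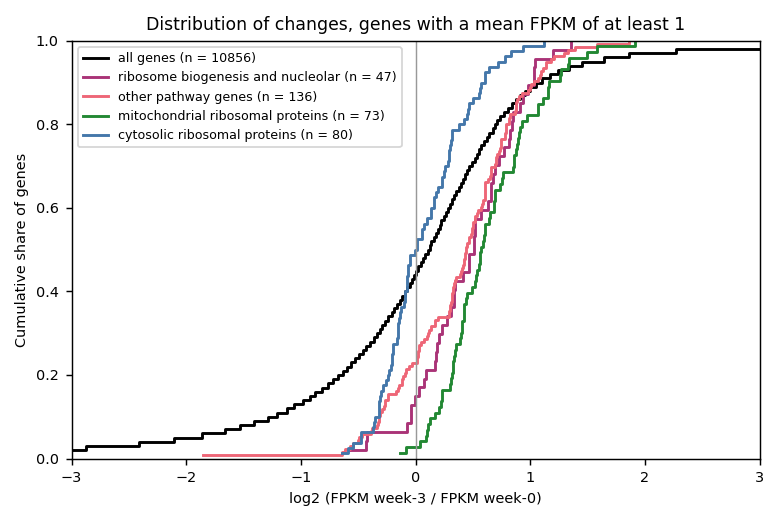
Cumulative share of genes (vertical axis) against the log2 ratio of FPKM, week-3 over week-0, for genes with a mean FPKM of at least 1. At the median, the curves of the 47 ribosome biogenesis and nucleolar genes (0.51), the 136 other pathway genes (0.44) and the 73 mitochondrial ribosomal protein genes (0.57) lie to the right of the 80 cytosolic ribosomal protein genes (0.00) and of all 10856 genes (0.10), whose curve is the widest.

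The members were compared by level as well, and the length behind the deposited FPKM mattered here. The length implied by reads and FPKM was within 1% of the summed length of all distinct annotated exons for 13137 of 17919 genes (73.3%) in GENCODE M21, and of the merged exon length for 22.2%. Of the 51 genes, 36 matched the summed length, in which exons that overlap between transcripts are counted more than once. Others did not. Fbl (implied length 1159 bases), Rrp1 (2008) and Nol8 (4242) were below even their merged exons (4209, 3337 and 9057 bases). Nop56, with 19 transcripts, had an implied length of 15263 bases, longer than the merged exons of the gene (4099 bases) and than its mRNA with the longest coding sequence (1877 bases). This leaves the ratios between libraries untouched, since the length cancels, but it changes the order of genes.

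Per kilobase of that mRNA and per 1000000 reads, Npm1 was the highest of the set at week-0, with 312, followed by Fbl (214), Nhp2 (211), Nop56 (185) and Rrp1 (175). By deposited FPKM, Nop56 was at position 18 and Fbl was first. The order per kilobase depends in turn on the mRNA chosen. Ncl, with the most reads of the set but an mRNA of 8202 bases, was at position 10 (69.8), against position 6 by deposited FPKM. At week-3 the order per kilobase of mRNA was Npm1 (597), Nhp2 (395), Nop56 (263), Nop16 (257) and Fbl (207). Nop16 had been at position 8 at week-0 and moved to position 4. In the box C/D particle, Nop56 and Fbl were within 1.5 times of each other per kilobase of mRNA. The deposited FPKM set them 22.7 against 221 at week-0. Nop58, with an mRNA of 9507 bases, stood far below both per kilobase of mRNA (20.8 and 25.2). In the box H/ACA particle, Nhp2 (211 and 395 per kilobase of mRNA) and Nop10 (124 and 200) stood above the other genes on both scales. Dkc1 had 31.6 and 53.8 and Gar1 34.3 and 40.3 per kilobase of mRNA.

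**Figure D4:**
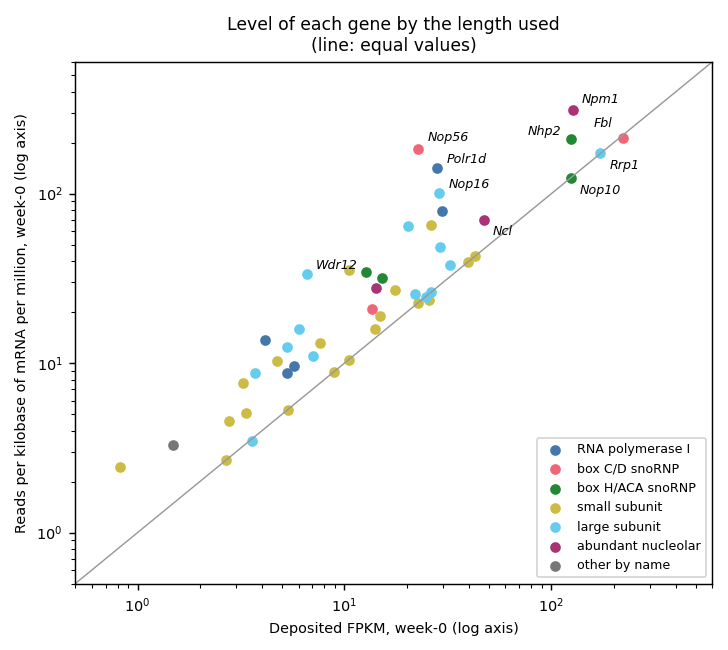
Reads per kilobase of mRNA and per 1000000 reads (vertical, log axis) against the deposited FPKM (horizontal, log axis) in the week-0 library for 49 genes, coloured by role, with the lowest genes, Nol3 and Nol4, not drawn. Nop56 lies far above the line of equal values (185 against 22.7), while Fbl, Rrp1 and Nop10 lie on or near it.

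Several members carry snoRNA genes in their own introns or exons. In GENCODE M21, 13 snoRNAs lay within 4 of the 51 genes on the same strand, with 5 in Nop56, 4 in Nop58, 3 in Ncl and 1 in Dkc1. Hosts made up 7.84% of the 51 genes and 1.86% of the 9581 protein-coding genes with a mean FPKM of at least 1. All 4 hosts had an interval above 0 (background 36.3%), with log2 ratios from 0.28 for Nop58 to 1.04 for Ncl. The snoRNAs themselves were not analysed here.

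The changes were then listed by the E-box printed above. The 7 genes with CACGTG and a mean FPKM of at least 1 had a median log2 ratio of 0.34, and 1 of them, Utp20, was higher by at least 1.5 times (14.3%). The 32 genes without it had a median of 0.55, and 15 were higher by 1.5 times (46.9%). Over all genes with a mean FPKM of at least 1 and a promoter entry, those with the motif had a median of 0.12, with 24.8% higher by 1.5 times, and those without it a median of 0.11, with 23.8%. Nop16, Ncl and Polr1b, with log2 ratios over 1, had no CACGTG in the window. CCAAT occurred, on either strand, in 34.1% of the member promoters and 42.6% of those of expressed genes, and TATAAA in 12.2% and 8.21%. Myc itself had 862 reads (FPKM 13.7) and 775 reads (20.1), a log2 ratio of 0.56 (0.41 to 0.70), Max had 0.66 (0.27 to 1.05) and Mycn 0.10 (-0.45 to 0.63).

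Base composition was also compared. Across the 47 genes, the change had a Spearman correlation of -0.34 with the GC content of the mRNA and of 0.07 with its length, against -0.11 and -0.13 over 9600 genes. These are descriptions over genes. Genes are no independent replicates, and all come from the same 2 libraries. Among the members described above, Ncl (GC content 42.8%) and Npm1 (42.4%) were AT-rich and higher at week-3, and Nol6 (57.1%) was GC-rich and lower. Other genes ran the opposite way, since Utp18 (42.7%) was AT-rich and lower, whereas Nop16 (54.1%) and Nhp2 (54.1%) were on the GC-rich side and higher. Exons of several members overlap those of a gene on the opposite strand. The longest overlaps were 1531 bases for Nol3 (with 4931428F04Rik), 1136 for Nop9 (Cideb), 678 for Rrp7a (Serhl), 473 for Utp14a (9530027J09Rik), 453 for Nol7 (Ranbp9), 437 for Nol11 (Gm11715), 355 for Rrp8 (Ilk) and 345 for Utp23 (Gm34678). Cideb and Ilk had 0 reads in both libraries. Since the strand setting of the counting is not known, the values of these 8 members are uncertain.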

How the data were processed

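Sorted LSKs of 3 mice were mixed for each library. Per the labels and the study's methods, cDNA from a SMARTer low-input kit was sequenced from both ends, and trimmed reads were aligned to GRCm38 (mm10) by TopHat2 2.0.9. Each deposited table lists counts (reads per gene, not normalized) and FPKM, which the authors computed from exon length and library total. The counting tool, its strand setting and the annotation release are not given in the sources used here. Reads of genes that overlap on opposite strands may therefore be mixed.

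The 2 tables were joined by gene identifier. Genes with a mean FPKM of at least 1 over both libraries were described as the background, without a pseudocount. Genes named in the text follow their role: all members of small complexes, and the highest and the extreme members of larger groups. The members and lists were chosen with earlier results of these data known. The main values carry no test, because edgeR, the study's tool, needs an assumed variation with 1 library per group. It served as an alternative (edgeR 4.0.16, DESeq2 1.42.0 size factors, R 4.3.3). Exact Clopper-Pearson intervals used scipy 1.17.1 in Python 3.11.15. Intervals and edgeR calls were tried on simulated counts, drawn with the variation that each method assumes. Such a trial checks the calculation and does not cover variation between mice or from amplification. Depth was 6356164 and 3886695 reads, so 3 reads correspond to 0.472 and 0.772 per 1000000. Alternatives were other scalings, pseudocounts, filters and fold limits.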

Additional observations from a re-analysis of the deposited data

How the results depend on the processing

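No paired analysis was possible because each time point was 1 library, and no library could be left out. Scaling by TMM or by median-of-ratios lowered every log2 ratio by 0.11 or 0.09, the median of all genes from 0.10 to -0.01 or 0.01, the median of the nucleolar genes from 0.51 to 0.40 or 0.42, and that of the other pathway genes from 0.44 to 0.33 or 0.35. With log2(FPKM + 1) these medians were 0.45 and 0.40. Without a filter on FPKM the median of the nucleolar genes was 0.47, and without the 12 genes that the rule names in full, an alternative chosen after seeing the data, it was 0.46. The number of genes higher by 2 times was 5 (background 11.0% of all genes). It was 2 with TMM (8.83%), with median-of-ratios (9.17%) and relative to the median of all genes (8.96%, also chosen after seeing the data). It was 3 with log2(FPKM + 1) (6.41%) and 0 in edgeR's exact test with an assumed biological coefficient of variation of 0.4 (0.249%). In that test the 19 genes higher by 1.5 times became 0 as well, where few of all genes were called (background 0.249%). With an assumed variation of 0.1 there were 5 and 18 (backgrounds 9.01% and 18.2%). Genes lower by 1.5 times numbered 1 with TMM (background 25.8%), 1 with median-of-ratios (25.1%) and 2 without a filter (33.4%). Those lower by 2 times numbered 2 without a filter (25.9%), since Nol4l and Utp14b then enter. Leaving the 10 genes with the most reads in either library out of the totals gave shares of 0.571% and 0.851%. The number of intervals above 0 was 31, 30 with TMM and 31 with median-of-ratios. No single gene whose interval excluded 0 changed sign under these scalings or with log2(FPKM + 1). Under a scaling, every gene shifts by the same amount. For the other settings that moved a count, the cause was not tested.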
